A study of Canis lupus familiaris with 6 samples.

Results

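The EGF family ligands EGF, TGFA, AREG, EREG, HBEGF and BTC and the receptors EGFR, ERBB2, ERBB3 and ERBB4 were followed in dog kidney epithelial cells on single-colour Agilent arrays. Members were chosen by exact gene name in the array design. 7 of the 10 genes were found among the 14228 gene names of the design. They were read by 15 of 43603 non-control probes, with 1 probe for EGF, 1 for EREG, 2 for HBEGF, 4 for EGFR, 2 for ERBB2, 3 for ERBB3 and 2 for ERBB4. No probe bore the names TGFA, AREG or BTC in that column. These 3 genes were found with 1 probe each under other identifiers, TGFA in the description column and AREG and BTC through a RefSeq gene table, and they are described beside the members without being counted among them.

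EGF family ligands are made as membrane-anchored precursors that proteases of the ADAM family cut free, and they act on the producing cell or on its neighbours. Ligand binding lets ERBB receptors pair and phosphorylate each other, which feeds the Ras-ERK and PI3K pathways. ERBB2 has no known ligand of its own and ERBB3 has a weak kinase, so both act mainly as partners, and EREG, HBEGF and AREG are themselves known targets of ERK signalling in epithelia.

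All 6 arrays held RNA of MDCK cells, a dog kidney line, that carried mCherry-tagged β-catenin Δ131, a stabilised β-catenin without its N-terminus (β-cat ΔN), and tetracycline-inducible GFP-RasV12, an active Ras. Single culture (n = 3) was these cells grown alone on collagen. Mix culture (n = 3) was the same cells among MDCK cells with β-cat ΔN but no RasV12, at 10 surrounding cells for each RasV12 cell. Tetracycline was given for 24 h in both groups, and GFP-positive cells were then sorted by flow cytometry, so the neighbours were not meant to be on the arrays. Both groups carried both transgenes, and no group without RasV12 or without β-cat ΔN was on these arrays. Both transgenes were stably carried by a cultured line, with β-cat ΔN under a vector promoter in all cells. The comparison asks how the levels of these genes in RasV12 cells differed with the kind of neighbour. The labels do not say whether replicates were separate cultures, so p-values measure the spread between these samples, which may be technical.

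Per array, 61.1 to 65.7% of spots were well above background, and the number of arrays limits the precision. Replicate 1 of each group lay on slide 1 and the other 4 arrays on slide 2, and 12557 of 26623 tested probes (47.2%) differed in level between slides at a limma adjusted p under 0.05. The slides also differed in scan resolution (3 µm on slide 1, 5 µm on slide 2) and in software version, which cannot be told apart from the slide. Each slide held both groups, so values are also given with the slide as a block. In the authors' own table of log2 values, the column of mix culture 2 followed the scanner file of mix culture 3 (r = 0.999) and that of mix culture 3 followed the file of mix culture 2 (r = 0.993), against 0.457 and 0.459 for the columns' own files. These are correlations across probes. Groups were unaffected by that exchange, and the sample of each scanner file was used here. All 7 epithelial markers with a probe, CDH1, EPCAM, CDH16, KRT18, OCLN, TJP1 and CLDN4, were well above background on all 6 arrays. Of the markers of other cells, 2 of 7 for fibroblasts, 3 of 4 for endothelium and 2 of 5 for leukocytes were above background on all arrays, while COL3A1, PDGFRA, DCN and PTPRC were above it on none.

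Each probe is a designed 60-base sequence, given 5′ to 3′ with its position on CanFam3.1. The EREG probe lies at chr13:62876981-62877040 on the plus strand and HBEGF probe 1 at chr2:35553229-35553288 on the minus strand, and both are printed since the largest differences among the members rest on them. The brightest probe of each receptor above background is shown for comparison, EGFR probe 4 at chr18:6041565-6041624 (plus), ERBB2 probe 1 at chr9:22761253-22761312 (minus) and ERBB3 probe 1 at chr10:413882-413941 (plus).
EREG: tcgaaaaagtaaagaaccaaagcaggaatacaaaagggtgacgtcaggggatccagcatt
HBEGF probe 1: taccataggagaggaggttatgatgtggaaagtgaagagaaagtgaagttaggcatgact
EGFR probe 4: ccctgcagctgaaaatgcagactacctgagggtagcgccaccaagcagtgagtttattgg
ERBB2 probe 1: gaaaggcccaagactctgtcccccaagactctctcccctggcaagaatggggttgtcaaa
ERBB3 probe 1: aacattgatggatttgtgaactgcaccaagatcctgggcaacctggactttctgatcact
All 15 member probes had at least 1 of 3 reading frames free of stop codons, which does not by itself place a probe in coding sequence, since no exon or UTR annotation was used. Their GC content ran from 38.3 to 55.0%, with a median of 43.3% over all non-control probes. The second HBEGF probe lies 1476 bases downstream of the first along the genome.

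Values below are background-subtracted intensities in arbitrary units, or normalised log2 intensities, which are log2 intensity minus the 75th percentile of the same array. A probe was tested where all 3 arrays of either group had it well above background. This held for 12 of the 15 member probes, those of EREG, HBEGF, EGFR, ERBB2 and ERBB3. 11 of them were above background on all 6 arrays, and EGFR probe 1 entered through single culture alone. Probes bind with different strength, so levels are compared between arrays and not between genes.

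None of the 12 tested probes passed an adjusted p under 0.05 in the limma fit without a block, where 235 of 26623 probes (0.883%) did. 2 of the 12 had an unadjusted p under 0.05, as 8.71% of all tested probes had. With the slide as a block, EREG and HBEGF probe 1 passed, both lower in mix culture, where 7.2% of all tested probes passed in either direction, 3.22% lower and 3.98% higher. With the replicate number as a block EREG passed and HBEGF probe 1 did not (adjusted p = 0.0562, limma), and 5.25% of all probes passed. The same 2 probes were the members whose groups did not overlap, where 8.66% of tested probes had every mix culture array below every single culture array. The median change of the 12 probes was -0.12 on the log2 scale and that of all tested probes -0.05. Below 0 were 11 of the 12 changes, without a share over all tested probes to set beside them. They include EGFR probe 1, which entered through single culture alone. Receptors gave 9 of the 12 probes, with several to a gene, so the changes are not 12 separate observations.

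**Figure D1:**
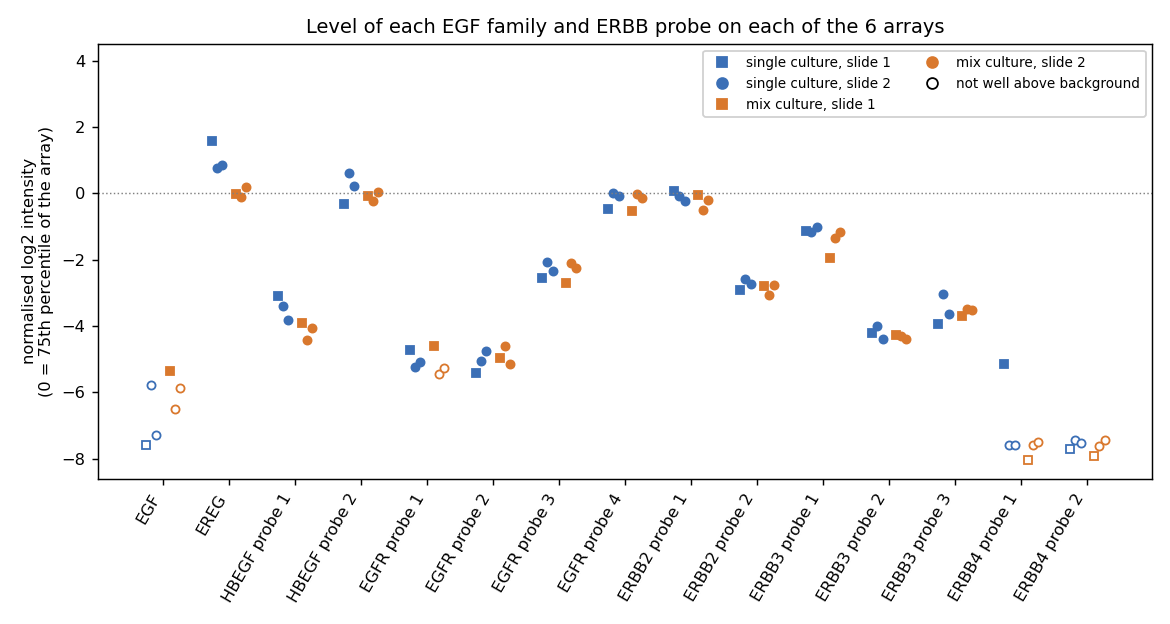
Normalised log2 intensity of the 15 member probes (horizontal axis) on the 3 single culture arrays (blue) and the 3 mix culture arrays (orange), with squares for slide 1, circles for slide 2 and open symbols for values not well above background. EREG and HBEGF probe 1 are the probes with all 3 mix culture arrays below all 3 single culture arrays, and EGF and both ERBB4 probes lie near the bottom with mostly open symbols.

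EREG, epiregulin, a ligand of EGFR and ERBB4, had an intensity of 610.5, 284.0 and 312.5 in single culture. In mix culture it was 227.9, 167.3 and 182.4. Every mix culture array was below every single culture array, also after scaling, where the normalised log2 intensity was 1.07 ± 0.44 (SD, n = 3) in single culture and 0.01 ± 0.15 (SD, n = 3) in mix culture. The log2 change was -1.05 (SE 0.24, 95% interval -1.63 to -0.48), so single culture was 2.07-fold above mix culture, with a limma adjusted p of 0.16. With the slide as a block, the SE was 0.18, the interval -1.47 to -0.64 and the limma adjusted p 0.013, and with the replicate block it was 0.0208. In sorted populations, less EREG RNA per cell and fewer cells that make it cannot be told apart.

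The size of the EREG difference varied between slides. On slide 1, with 1 array a group, the log2 change was -1.60, and on slide 2, with 2 a group, it was -0.78 (limma adjusted p = 0.033). Single culture replicate 1 was the brightest EREG array and lay on slide 1. The difference between the slides' changes had an unadjusted p of 0.0129 and an adjusted p of 0.386 in limma, so it did not pass. In fits without a block and with any 1 array left out, the change stayed between -1.20 and -0.80, with limma adjusted p from 0.164 to 0.554. Leaving out 1 array makes the slides unequal between groups, so these changes also hold part of the step between slides. They do not test the call with the slide block.

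HBEGF, heparin-binding EGF-like growth factor, a ligand of EGFR and ERBB4, was read by a pair of probes that gave different results. Probe 1 had an intensity of 24.1, 15.9 and 12.3 in single culture and 15.5, 8.46 and 9.56 in mix culture. On each slide the single culture arrays were higher, although the intensity of mix culture 1 exceeded that of single culture 3 before scaling. After scaling the groups did not overlap, at -3.43 ± 0.36 against -4.13 ± 0.26 (SD, n = 3 each, normalised log2 intensity). The log2 change was -0.70 (SE 0.24, 95% interval -1.26 to -0.14), a 1.62-fold higher level in single culture, with a limma adjusted p of 0.42 without a block and 0.0321 with the slide block. It was -0.81 on slide 1 and -0.64 on slide 2 (limma adjusted p = 0.138). With normexp background correction and its offset of 50, above the intensity of this probe on all arrays, the change was -0.19 (limma adjusted p = 0.997).

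HBEGF probe 2, the brighter of the pair on every array, had an intensity of 163.6, 255.6 and 199.6 in single culture and 221.6, 153.3 and 166.9 in mix culture. The groups overlapped, and the arrays of slide 1 ran opposite to those of slide 2. Its log2 change was -0.25 (95% interval -0.69 to 0.19 with the slide block), with limma adjusted p of 0.9 without a block and 0.425 with the slide block. The change was 0.26 on slide 1 and -0.51 on slide 2, a difference with an unadjusted p of 0.0415 and an adjusted p of 0.525 in limma. By the rule that the brightest probe stands for a gene, HBEGF did not pass in any of these fits, and whether the probes read different transcripts was not tested.

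**Figure D2:**
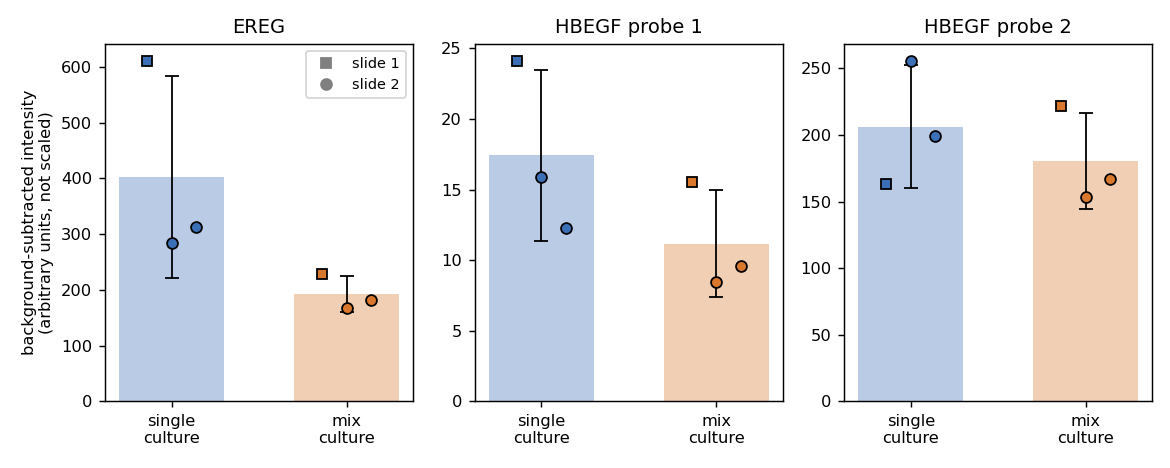
Background-subtracted intensity of EREG and of both HBEGF probes in single culture (blue) and mix culture (orange), not scaled between arrays, with points for arrays (squares slide 1, circles slide 2), bars for the mean of 3 arrays and whiskers for the SD. EREG points are all lower in mix culture, from 167.3 to 227.9 against 284.0 to 610.5, while the points of HBEGF probe 2 overlap.

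The other ligands were at or near background. EGF itself, the founding ligand of EGFR, was well above background on 1 of 6 arrays, mix culture 1, at an intensity of 5.65, and read 1.07 to 3.01 on the single culture arrays. AREG, amphiregulin, read 0.87 to 0.91 on all arrays and was not well above background on any. BTC, betacellulin, was above background on both arrays of slide 1, at 5.94 in single culture and 6.18 in mix culture, and on none of slide 2. These 3 were not tested, and no fold is given.

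TGFA, transforming growth factor alpha, which binds EGFR, was above background on all 6 arrays. Its intensity was 9.39, 9.76 and 11.3 in single culture and 10.7, 10.1 and 13.2 in mix culture. The groups overlapped after scaling, and the log2 change was 0.08 (95% interval -0.27 to 0.44 with the slide block), with limma adjusted p of 0.979 without a block and 0.75 with it. A dim probe such as this one sits close to the lowest signals called above background, 4.19 to 4.48 per array.

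EGFR, the receptor shared by these ligands, did not pass with any of its 4 probes. Probe 4, the brightest, had an intensity of 147.1, 168.6 and 163.1 in single culture and 161.0, 179.6 and 146.8 in mix culture. The groups overlapped, and the log2 change was -0.04 with an SE of 0.21 (limma adjusted p = 0.986). With the slide block the 95% interval was -0.28 to 0.19 and the limma adjusted p 0.812. Probe 3, 3805 bases upstream along the genome, read 34.0 to 39.4 in single culture and 34.1 to 42.6 in mix culture, with a log2 change of -0.02 (limma adjusted p = 0.993). EGFR probes 1 and 2 were dim, at 4.41 to 7.79 and 4.79 to 6.36 in single culture, and their genomic positions span more than the probe length. Probe 2 changed by 0.18 (limma adjusted p = 0.94), the one tested member probe with a value above 0. Probe 1 was above background on all 3 single culture arrays but on 1 of 3 in mix culture, where the other 2 read 4.12 and 4.20, so its fitted change rests partly on values at background and is not read as a measured difference.

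EGFR was also the receptor whose probes differed in level between slides. Probes 1, 3 and 4 passed for the slide itself, with limma adjusted p of 0.00695, 0.0258 and 0.0102. Slide 2 minus slide 1 was -0.60 on the log2 scale for probe 1 and 0.43 and 0.46 for probes 3 and 4. The opposite signs on probes of the same gene stand beside the 47.2% of all tested probes that differed between slides.

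ERBB2, the partner receptor without a known ligand, had an intensity with probe 1 of 214.6, 159.3 and 146.5 in single culture and 222.4, 128.9 and 141.1 in mix culture. The arrays of slide 1 were the brightest in both groups, and the groups overlapped. Its log2 change was -0.17 (SE 0.18), with limma adjusted p of 0.909 without a block and 0.398 with the slide block, where the 95% interval was -0.44 to 0.11. Probe 2 changed by -0.12 (limma adjusted p = 0.944), with 0.14 on slide 1 and -0.26 on slide 2.

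ERBB3, the receptor of neuregulins with a weak kinase, did not pass with any of its 3 probes. The intensity of probe 1 was 93.2, 73.3 and 84.4 in single culture and 59.8, 71.6 and 71.8 in mix culture. Mix culture 1 was the lowest array for this probe, though not for the other two. After scaling, mix culture 3 reached into the single culture range. The log2 change was -0.37 (SE 0.23), the most negative of any receptor probe, with a limma adjusted p of 0.777. With the slide block the unadjusted 95% interval was -0.73 to -0.01 and the limma adjusted p 0.185. The change was -0.82 on slide 1 and -0.14 on slide 2, a difference with an unadjusted p of 0.0221 and an adjusted p of 0.454 in limma. Probe 2 of ERBB3, 7865 bases away, changed by -0.12 (limma adjusted p = 0.941), and probe 3 changed by -0.03 (limma adjusted p = 0.99).

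ERBB4, the other receptor of neuregulins and of HBEGF and EREG, was near background. Probe 1 was well above it on single culture 1, at 5.87, and read 0.87 to 0.94 on the other 5 arrays. Probe 2 was not well above background on any array, at 0.93 to 0.98. Neither was tested.

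Over the 9 tested receptor probes the log2 changes ran from -0.37 to 0.18, with a median of -0.09. Their limma adjusted p ran from 0.777 to 0.993 without a block and from 0.185 to 0.934 with the slide block. The widest limits of their 95% intervals with the slide block were -0.73, for ERBB3 probe 1, and 0.57, for EGFR probe 2. These figures include EGFR probe 1, which was partly at background.

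**Figure D3:**
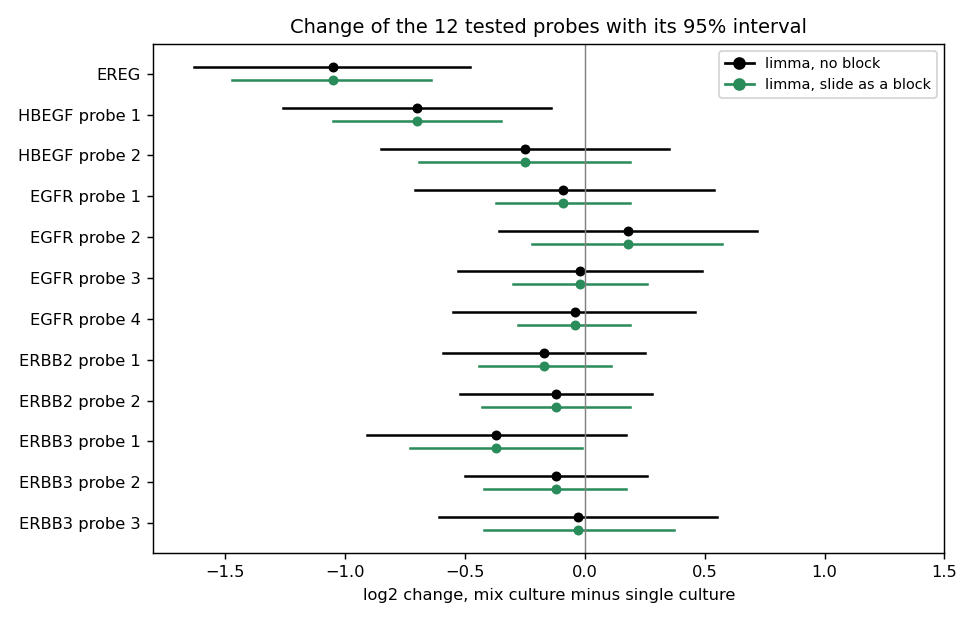
Log2 change from single to mix culture of the 12 tested member probes (points) with its 95% interval (lines, not adjusted for the number of probes) from limma without a block (black) and with the slide as a block (green). The intervals of EREG and HBEGF probe 1 lie below 0 in both fits, and those of the receptors include 0 except for ERBB3 probe 1 with the slide block (-0.73 to -0.01).

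Within slides, 7 of the 12 probes were lower in mix culture on slide 1 and 10 of the 12 on slide 2, without shares over all tested probes. Several of the 12 read the same receptor, and EGFR probe 1 was partly at background. The median over all tested probes was -0.06 on slide 1 and -0.04 on slide 2. None of the 12 passed the limma test for a change that differs between slides after adjustment. EREG, HBEGF probe 2 and ERBB3 probe 1 had an unadjusted p under 0.05 in it. This is 3 of the 12, without a share over all tested probes to set beside it.

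**Figure D4:**
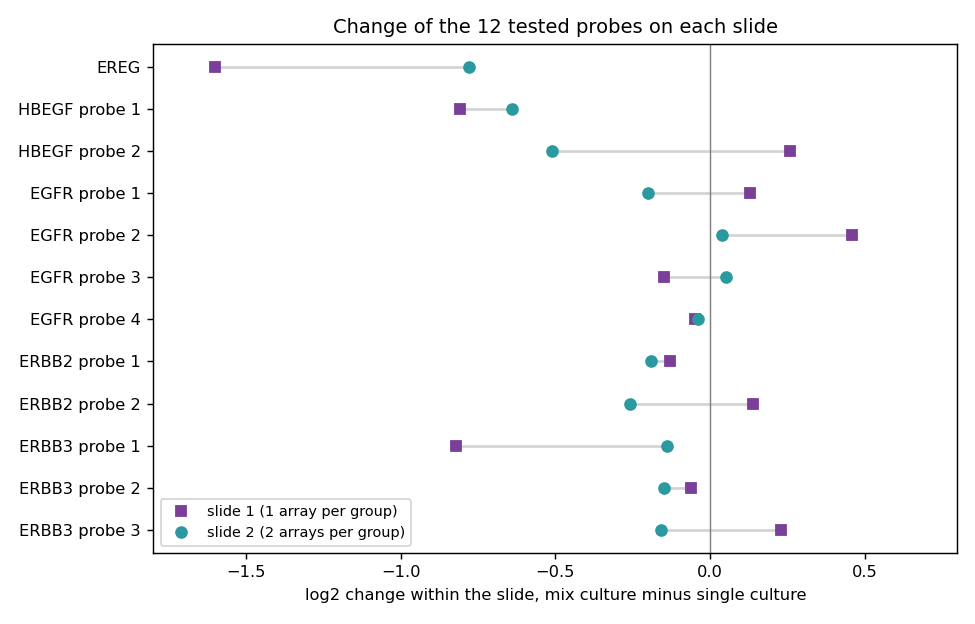
Log2 change from single to mix culture of the 12 tested member probes on slide 1 (squares, 1 array a group) and on slide 2 (circles, 2 arrays a group). EREG (-1.60 and -0.78) and HBEGF probe 1 (-0.81 and -0.64) lie well below 0 on both slides, whereas HBEGF probe 2 lies on either side of 0.

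The patterns most like those of EREG and HBEGF probe 1 over the 6 arrays were sought among 15122 tested probes with a gene name, by Pearson correlation of normalised log2 intensity. MSN, which codes for moesin, ITPRIPL1 and ARPC2, a subunit of the Arp2/3 complex, were closest to EREG, each with r = 0.997. For HBEGF probe 1 they were UBE2H (r = 0.994), ADORA2A (r = 0.992) and SLC1A4 (r = 0.990). The 6 points share slides and groups, so these values are a description. Among them MSN and SLC1A4 passed with the slide block, at log2 changes of -0.67 (limma adjusted p = 0.0305) and -1.11 (limma adjusted p = 0.0149). Of all tested probes 7.2% passed with that block. These genes were picked for likeness to probes called with it, so their passing is no separate result.

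The remaining ligands of the family are the neuregulins NRG1 to NRG4, which are ligands of ERBB3 or ERBB4, and epigen (EPGN). 4 of these 5 had a probe and 2 were tested, and neither passed in any of the fits above. NRG1 had a log2 change of 0.28 and NRG2 of -0.24, with limma adjusted p of 0.367 and 0.44 with the slide block. NRG2 intensity was 10792.2 and 12853.4 on the slide 1 arrays and 1329.8 to 2311.9 on those of slide 2, a larger step between slides than between groups. NRG3 and EPGN were not well above background on any array.

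Proteins that cut or mature the ligand precursors, such as the sheddases ADAM17 and ADAM10 and the iRhoms, were measured by 14 of 17 listed genes, of which 13 were tested. None passed with or without a block. Their log2 changes ran from -0.28 for ADAM17 to 0.32 for RHBDL2, a rhomboid protease, with a median of -0.08 beside -0.05 over all tested probes. With the slide block the limma adjusted p was 0.142 for ADAM17 and 0.113 for RHBDL2. ADAM10 changed by 0.08 (limma adjusted p = 0.973).

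Adaptors and enzymes that bind the activated receptors were tested for 24 of 28 listed genes, and none passed without a block. With the slide block 1 of the 24 passed, where 7.2% of all tested probes did. GRB7, an adaptor that binds ERBB2, was lower in mix culture with the slide block, with a log2 change of -0.53 (limma adjusted p = 0.0387), and did not pass without a block (0.795) or with the replicate block (0.061). PIK3R3, a regulatory subunit of PI3K, passed with the replicate block and not with the slide block, at a fitted change of 0.62 (limma adjusted p = 0.033 and 0.0932). It was above background on 5 of 6 arrays, with single culture 3 at 4.21 not above it, so it was tested through mix culture, where it was higher. The median of the list was 0.11, and 8 of its 24 changes were below 0, without a share over all tested probes to set beside them. Without mix culture 1 the median was -0.03, and without single culture 3 it was 0.04.

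Of 20 genes listed as negative regulators of ERBB receptors 16 were tested, with a median of -0.06, which was 0.13 without mix culture 1. None passed without a block. Whether each listed gene lowers ERBB signalling in these cells was not tested. With the slide block 3 of the 16 were lower in mix culture and 1 was higher, where 3.22% and 3.98% of all tested probes were. ERRFI1 (MIG6), which binds and inhibits the EGFR kinase, had an intensity of 10135.2, 4496.0 and 4250.4 in single culture and 6011.7, 2375.3 and 2501.5 in mix culture. It was lower in mix culture within each slide, with -0.93 on slide 1 and -0.85 on slide 2 on the log2 scale, though the groups overlapped across slides. Over both slides the change was -0.88. Its limma adjusted p was 0.539 without a block, 0.00392 with the slide block and 0.00917 with the replicate block. A second ERRFI1 probe changed by -0.85 (limma adjusted p = 0.00542 with the slide block).

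LRIG3, a member of the LRIG family of transmembrane proteins, some of which lower ERBB levels, was higher in mix culture. Its intensity was 19.2, 12.6 and 12.6 in single culture and 46.0, 22.9 and 19.2 in mix culture. After scaling the groups did not overlap, with a log2 change of 0.84, and limma adjusted p of 0.273 without a block and 0.00527 with the slide block. PTPRJ, a receptor phosphatase that acts on EGFR, had a log2 change of -0.56 (limma adjusted p = 0.0393 with the slide block). CBLC, of the CBL family of ubiquitin ligases that tag EGFR, had a log2 change of -0.52 (limma adjusted p = 0.0437 with the slide block). The replicate block kept ERRFI1 and LRIG3 past the threshold and not PTPRJ and CBLC (limma adjusted p = 0.0608 and 0.0793).

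Genes known as outputs of ERK signalling were tested for 14 of 18 listed, with a median of -0.36 beside -0.05 over all tested probes. Below 0 were 9 of the 14 changes, without a share over all tested probes. Slide 1 gave a median of -0.43 and slide 2 of -0.21, and without mix culture 2 the median was -0.20. 1 of the 14 genes passed without a block, where 0.883% of all probes did. SPRY4, a Sprouty protein that dampens receptor signalling to ERK, had an intensity of 33.8, 33.7 and 36.6 in single culture and 16.3, 11.4 and 15.2 in mix culture. Every mix culture array was below every single culture array. The log2 change was -1.36 (SE 0.21), which made single culture 2.57-fold higher, and the limma adjusted p was 0.0357 without a block and 0.00253 with the slide block. It was -1.23 on slide 1 and -1.43 on slide 2. The call without a block did not hold with any 1 array left out other than single culture 1 (limma adjusted p up to 0.208). Normexp background correction has an offset of 50, above this probe's intensity on all arrays. With it the change was -0.48 (limma adjusted p = 0.414).

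With the slide block 5 of the 14 were lower in mix culture and none was higher, where 3.22% and 3.98% of all tested probes were. ETV5, an ETS transcription factor, had an intensity of 2537.9, 932.4 and 960.5 in single culture and 1157.3, 612.1 and 617.2 in mix culture. CCND1, cyclin D1, had 2565.3, 3723.2 and 3772.0 in single culture and 1759.4, 2788.5 and 1852.6 in mix culture. Within each slide all single culture arrays of both genes were above the mix culture arrays. Their log2 changes were -0.86 (limma adjusted p = 0.0164 with the slide block and 0.535 without) and -0.73 (limma adjusted p = 0.0161 with it and 0.628 without).

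FOSL1, a Fos-related factor, changed by -0.55 and DUSP6, an ERK phosphatase, by -0.48 (limma adjusted p with the slide as a block, 0.0231 and 0.0455). The replicate block left 4 of the 5 past the threshold, all but DUSP6 (limma adjusted p = 0.0789). FOS and EGR1, both immediate early genes, had changes of 0.40 and 0.22 and did not pass in any of these fits.

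2 of the 7 epithelial markers were also lower in mix culture with the slide block, where 3.22% of all tested probes were, CLDN4 at a log2 change of -0.87 (limma adjusted p = 0.0136) and CDH1 at -0.47 (limma adjusted p = 0.0444). Summed epithelial marker intensity ran from 69424.1 to 102259.8 in single culture and from 57584.1 to 73426.3 in mix culture. The sums for fibroblast (138.8 to 375.8 against 123.3 to 343.4), endothelial (917.0 to 2887.3 against 842.8 to 3349.1) and leukocyte markers (49.4 to 85.0 against 40.8 to 93.4) overlapped between groups, as the epithelial sums did. Their part in the values of EREG, HBEGF and the pathway genes was not tested. The surrounding cells were MDCK cells too, so these markers cannot show neighbours carried through the sort. Such carry-over was not tested.

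**Figure D5:**
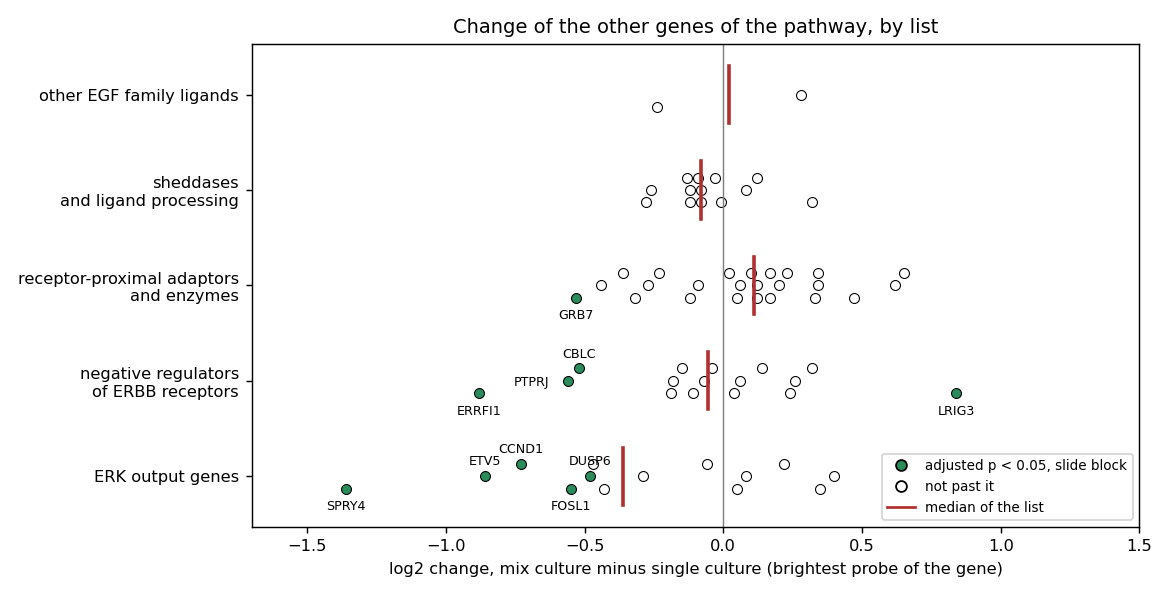
Log2 change from single to mix culture of each tested gene (points, brightest probe) in the 5 pathway lists (vertical axis), with genes past an adjusted p under 0.05 with the slide block in green and named, and the median of each list as a red line. The green points are SPRY4, ETV5, CCND1, FOSL1 and DUSP6 among ERK outputs, ERRFI1, PTPRJ, CBLC and LRIG3 among negative regulators, and GRB7 among adaptors, and of these LRIG3 lies above 0.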

How the data were processed

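RNA of 6 samples was labelled with Cy3, and each sample's title gave its group. 1 scanner file per array was deposited, with spot intensity on a linear scale, which per the file headers Agilent Feature Extraction (11.5.1.1 for slide 1, 12.1.1.1 for slide 2) had background-subtracted and not scaled between arrays. Log2 values of these arrays, which the authors had centred within slides, came in a further table and served as an alternative. No spot was saturated.

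Log2 intensity was taken, outlier spots were dropped (5 to 9 per array), spots of a probe were averaged and the array's 75th percentile was subtracted. The 26623 probes well above background on all 3 arrays of either group were tested two-sided with limma 3.58.1 (R 4.3.3), by lmFit followed by eBayes. P-values were adjusted over all of these probes by Benjamini-Hochberg, and those under 0.05 were called. The fit was also run on simulated arrays with known changes, which checks the code and not the calls given here. The replicate number was tried as a block. Deviations from the group means correlated between same-numbered arrays (r = 0.801, 0.53 and 0.572 over probes). They were taken over both slides and so hold the step between slides. On slide 2, differently numbered arrays correlated no less (r = 0.61 and 0.632), so the data do not show that equal numbers are pairs. The crossed replicate block instead paired single culture 2 with mix culture 3 and single culture 3 with mix culture 2.

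Members, gene lists and tests were chosen with earlier results of these data known. The rule named all members, list genes called without a block, the 3 list genes with the largest change among those called with the slide block, and the 3 genes most like each called member. ADAM17, ADAM10, RHBDL2, PIK3R3, CBLC, FOSL1, DUSP6, FOS, EGR1, NRG1 and NRG2 were named after their values were seen. The brightest probe stood for a listed gene. RefSeq names came from the assembly UU_Cfam_GSD_1.0, and positions from the files.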

Additional observations from a re-analysis of the deposited data

How the results depend on the processing

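The number of probes called over the whole array was 235, and it was 1917 with the slide block, 1399 with the replicate block, 1446 with the crossed replicate block, 100 with normexp on the median spot signal, 143 for probes above background on all 6 arrays, 4077 with the authors' table, 8 with the methods' t-test and 999 on slide 2 alone. With any 1 array left out it ran from 92 to 247, with 92 when single culture 3 or mix culture 2 was left out and 99 when mix culture 3 was. All fits with 1 array left out had no block and slides unequal between groups. Their values therefore also hold part of the step between slides and do not test the calls with the slide block. Of the member probes, 2 were called with the slide block, 1 with the replicate block, 2 with the crossed block, 2 with the authors' table and 1 on slide 2 alone. Among the other alternatives none was. The authors' values were already centred within slides and were fitted without a block. That fit does not count the slide means removed, so its p-values are too small and its calls too many.

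EREG kept its direction throughout and passed in limma with the slide block (-1.05, adjusted p = 0.013), the replicate block (-1.05, 0.0208), the crossed block (-1.05, 0.0296), the authors' table (-1.04, 0.00776) and on slide 2 alone (-0.78, 0.033). It was -1.60 on slide 1 alone. HBEGF probe 1 passed in limma with the slide block (-0.70, adjusted p = 0.0321), the crossed block (-0.70, 0.0167) and the authors' table (-0.69, 0.0155), and ran from -0.89 to -0.53 with 1 array left out. HBEGF probe 2 was 0.26 on slide 1 alone and ran from -0.50 to -0.03 with 1 array left out. The adjusted p-values from the authors' table are too small for the reason above, and they add no test separate from the slide block. No alternative turned EREG or HBEGF probe 1.

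Changes near 0 turned sign without passing. Fits with 1 array left out hold part of the slide step. EGFR probe 1 was 0.06 without single culture 1 and 0.09 without mix culture 2 (range -0.34 to 0.09). Probe 2 was -0.04 with normexp. EGFR probe 3 was 0.05 on slide 2 alone. Without single culture 2 or mix culture 1, it was 0.10 and 0.16 (range -0.14 to 0.16). ERBB3 probe 3 was then 0.22 and 0.04 (range -0.23 to 0.22). EGFR probe 4 was -0.05 on slide 1 and -0.04 on slide 2. Without single culture 2 or 3 or mix culture 1 it was 0.06, 0.01 and 0.11 (range -0.19 to 0.11). The mean of all 4 EGFR probes was 0.01. On slide 1 alone EGFR probe 1 was 0.13, ERBB2 probe 2 0.14 and ERBB3 probe 3 0.23.

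Called list genes numbered 1 with the slide block and 1 with the replicate block for adaptors, 4 and 2 for negative regulators, and 5 and 4 for ERK outputs, against 0, 0 and 1 without a block. For ERK outputs the count ran from 0 to 1 with 1 array left out, with SPRY4 lost when any array but single culture 1 was left out. Alternatives for SPRY4 were chosen after seeing the data. It also missed the threshold in limma with the percentile over probes above background on all arrays (adjusted p = 0.0544), with normexp (0.414) and with no filter (0.06), and in the methods' t-test with Benjamini-Hochberg adjustment (0.218), by an unchanged -1.36 except with normexp (-0.48). Normexp also brought HBEGF probe 1 to -0.19. Its offset of 50 was above the intensity of SPRY4 and of HBEGF probe 1 on all arrays. The cause of these differences was not tested. With 3 arrays a group, probes near background such as EGF, AREG, BTC and ERBB4 allow no statement on a change.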
